A study of Mus musculus with 8 samples.

Results

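The levels of 10 genes of the antioxidant system were measured in detached mouse retina: the stress-response factor Nfe2l2 (the protein is called Nrf2), its inhibitor Keap1, the quinone reductase Nqo1, the superoxide dismutases Sod1 and Sod3, catalase (Cat), the glutathione peroxidases Gpx1 and Gpx3, and the glutathione transferases Gsta4 and Gstm1. They were taken by gene symbol from a table of 56465 features, and all 10 of 10 symbols had 1 row each. RNA was sequenced from retinas of TG mice, which express human transferrin (n = 4; TG 2, 5, 6 and 8, 2 male and 2 female), and of WT mice (n = 4; WT 3, 4, 5 and 7, 3 male and 1 female). TG 2, TG 6 and WT 7 came from left eyes and the other retinas from right eyes. All 8 samples carry the background label C57Bl/6J, and every retina had been detached by 10 µl of sodium hyaluronate injected under it and was collected 4 days later, so the WT retinas are injured too and none is an undetached control. The promoter that drives the transgene, the age of the mice and whether each retina came from its own mouse are not stated in the labels, so p-values measure only the spread between these samples.

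Nrf2 is held in the cytoplasm by Keap1, which hands it to a ubiquitin ligase. Oxidants and electrophiles modify Keap1, and Nrf2 then enters the nucleus, pairs with a small Maf protein and binds antioxidant response elements, among them one in the Nqo1 gene. Superoxide dismutases turn superoxide into hydrogen peroxide, Sod1 in the cytosol and Sod3 outside the cell. Catalase in peroxisomes and the selenium-dependent glutathione peroxidases, Gpx1 in the cell and Gpx3 as a secreted enzyme, remove the peroxide. Gsta4 joins glutathione to 4-hydroxynonenal, an aldehyde from oxidised lipids, and Gstm1 to a range of electrophiles. The retina is rich in oxidisable membrane lipid and has a high oxygen use, and free iron, which transferrin binds, drives the formation of hydroxyl radicals from hydrogen peroxide.

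Of the 10 genes, 8 had RefSeq promoter windows (GRCm38.p6, 250 bases before to 50 after the start). The core letters of the antioxidant response element, TGACNNNGC on either strand, were found in 2 of these 8 genes, Nfe2l2 and Sod1, and in 14.0% of all 27025 genes in the table. The window of Nqo1, a gene with an element named above, held no match, and bases outside the windows were not searched. Counted by window, they were in 2 of 9 windows of these genes and in 12.4% of all 32851. The opening letters of this core are also those of the AP-1 site TGACTCA. The match on the coding strand of Nfe2l2 reads TGACTCCGC and starts at position -240, and the match in Sod1 lies on the other strand, where it reads TGACCACGC, with its first base in the window at position -56. A match in letters is a description and not a binding site. The 2 windows with a match are printed with the core in capitals, and the window of Gpx3, the gene that varied most between libraries, is printed for comparison and holds no core.
Nfe2l2, chr2:75704614-75704913, minus strand: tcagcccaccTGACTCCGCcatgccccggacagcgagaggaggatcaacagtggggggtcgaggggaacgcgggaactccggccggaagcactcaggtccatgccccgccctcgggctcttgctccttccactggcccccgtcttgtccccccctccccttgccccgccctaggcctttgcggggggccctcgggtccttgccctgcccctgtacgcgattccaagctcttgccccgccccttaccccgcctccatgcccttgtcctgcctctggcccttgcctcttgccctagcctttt
Sod1, chr16:90220512-90220811, plus strand: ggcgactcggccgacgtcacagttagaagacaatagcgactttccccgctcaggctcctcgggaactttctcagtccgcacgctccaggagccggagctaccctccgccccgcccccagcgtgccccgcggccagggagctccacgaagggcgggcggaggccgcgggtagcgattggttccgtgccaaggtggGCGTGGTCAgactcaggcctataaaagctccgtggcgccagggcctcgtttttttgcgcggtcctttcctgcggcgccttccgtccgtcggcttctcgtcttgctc
Gpx3, chr11:54902604-54902903, plus strand: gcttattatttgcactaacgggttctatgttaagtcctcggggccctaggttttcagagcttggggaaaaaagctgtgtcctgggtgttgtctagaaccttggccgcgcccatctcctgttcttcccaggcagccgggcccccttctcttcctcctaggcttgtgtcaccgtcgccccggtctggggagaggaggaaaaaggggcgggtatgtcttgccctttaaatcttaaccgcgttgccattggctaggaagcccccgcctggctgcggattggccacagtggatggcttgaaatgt

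No gene of the 10 passed the test between TG and WT retinas, and in all 10 the TG and WT values overlapped. With limma, 0 of 10 had an adjusted p under 0.05 and 0 of 10 an unadjusted p under 0.05. Over all 19798 tested features, 0.0101% were called by limma, 4.64% had an unadjusted p under 0.05 and 2.53% had groups that did not overlap. On the whole reads recovered from the table, edgeR and DESeq2 also called 0 of 10, with 0 of 10 at an unadjusted p under 0.05 in either. Their shares over all features were 0.0101% called and 4.12% at an unadjusted p under 0.05 for edgeR, and 0.0808% and 5.34% for DESeq2. The TG estimate lay above WT for 8 genes and below it for 2, with a median log2 fold change of 0.10, beside -0.02 over all features, of which 47.8% lay above 0. In these whole retinas, fewer cells of a type and less RNA per cell cannot be told apart.

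**Figure D1:**
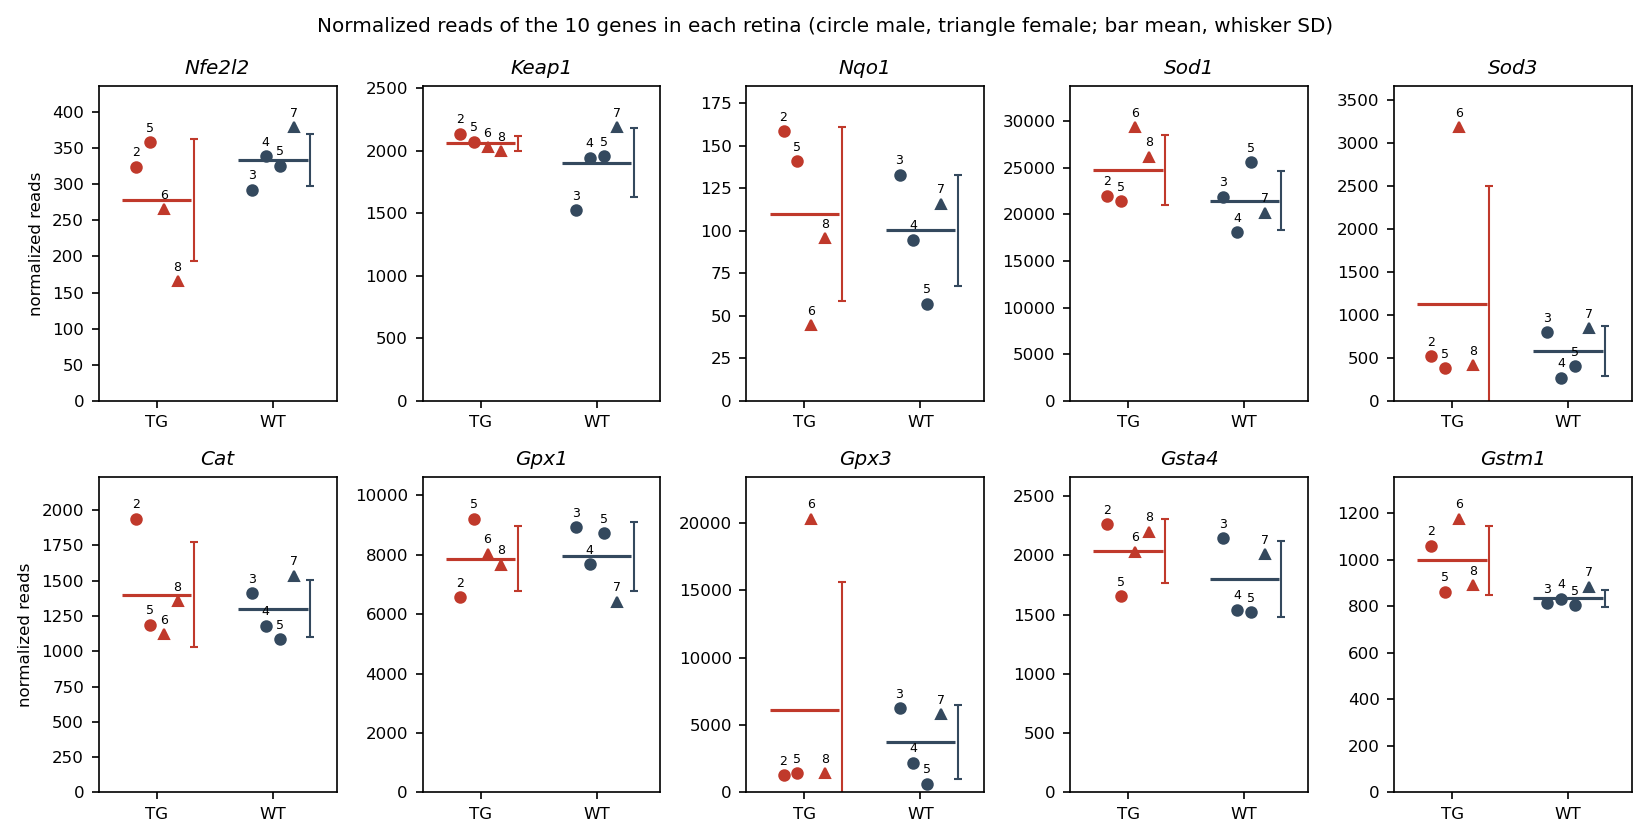
Normalized reads (vertical axes, each from 0) of the 10 genes in the 4 TG libraries (red, left) and the 4 WT libraries (dark, right), with library numbers beside the points, bars for means and whiskers for SD, cut at 0 for Sod3 and Gpx3 in TG. The 2 groups overlap in every panel, and TG 6 stands far above the other libraries for Gpx3 (20313) and Sod3 (3182).

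Nfe2l2 lies on chromosome 2 (75675513 to 75704666, minus strand, mm10) and had 324, 358, 266 and 166 normalized reads in TG 2, 5, 6 and 8, against 293, 339, 326 and 379 in WT 3, 4, 5 and 7. TG 8 was the lowest library of all, and the other 3 TG libraries lay between 266 and 358. Its log2 fold change was -0.31 ± 0.26 (SE; 95% interval -0.88 to 0.26; adjusted p = 0.92, limma), and -0.08 without TG 8. Keap1, on chromosome 9 (21229730 to 21239332, minus strand), stood at 2137, 2074, 2030 and 1997 in TG and at 1525, 1944, 1957 and 2190 in WT. Its 4 TG values were close together (2060 ± 60.6, SD, n = 4, against 1904 ± 277 in WT), and WT 3 alone was low. The log2 fold change of Keap1 was 0.12 ± 0.14 (SE; interval -0.19 to 0.44), and 0.02 without WT 3.

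Nqo1, a flavoprotein that reduces quinones and is a standard readout of Nrf2 activity, had the lowest mean of the 10. The gene lies on chromosome 8 (107388225 to 107403273, minus strand), and had 159, 141, 44.5 and 95.6 normalized reads in TG, against 133, 94.8, 57.1 and 116 in WT. Both the highest library (TG 2) and the lowest (TG 6) were TG retinas, and the group means were 110 ± 51.1 in TG and 100.2 ± 32.8 in WT (SD, n = 4 each). The log2 fold change of 0.05 ± 0.45 (SE; interval -0.92 to 1.01) allows, as a ratio of TG to WT, anything from 0.530 to 2.01, and it ran from -0.20 to 0.43 when 1 library was left out and was 0.73 in males alone. The lowest value rests on 36 recovered reads (exact Poisson 95% interval 25.2 to 49.8, counting error only).

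The 2 dismutases behaved differently from library to library. Sod1, on chromosome 16 (90220742 to 90226331, plus strand), had 21979, 21397, 29350 and 26167 normalized reads in TG and 21896, 18095, 25593 and 20189 in WT. Female TG 6 and TG 8 were the 2 highest, with male WT 5 next to them, and the estimate on the log2 scale was 0.20 ± 0.15 (SE; interval -0.11 to 0.52; limma, adjusted p = 0.92). In the 5 male retinas alone the estimate was 0.0027, and with sex fitted it was 0.16. The female WT retina, WT 7, had 20189, below every TG library. Sod3, on chromosome 5 (52363801 to 52371418), had 519, 380, 3182 and 418 in TG, against 798, 269, 404 and 846 in WT. TG 6 was above every other library, and WT 7 and WT 3 came next, so the order of the libraries did not follow genotype. The log2 fold change of Sod3, 0.46 ± 0.58 (SE; interval -0.79 to 1.70), was -0.26 without TG 6, 0.0051 in males alone and 0.16 when sex was fitted. edgeR and DESeq2 gave 0.94 and 0.96 for Sod3 and did not call it (adjusted p = 0.97 and 0.99).

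Catalase, on chromosome 2 (103453904 to 103485153, minus strand), had 1940, 1187, 1120 and 1355 normalized reads in TG and 1409, 1182, 1085 and 1533 in WT. TG 2 was above the rest and the other TG values lay inside the WT range. Its log2 fold change was 0.08 ± 0.19 (SE; interval -0.34 to 0.50), -0.085 without TG 2 and 0.32 in males alone. Gpx1, on chromosome 9 (108339080 to 108340340), held 6565, 9222, 8032 and 7663 in TG, against 8932, 7687, 8738 and 6427 in WT. The 2 ranges nearly coincided, and the log2 fold change of -0.01 ± 0.15 (SE) had an interval from -0.33 to 0.30, that is a ratio of TG to WT between 0.797 and 1.23.

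Gpx3, on chromosome 11 (54902854 to 54910382, plus strand), was the gene whose level varied most between retinas. It had 1261, 1412, 20313 and 1446 normalized reads in TG 2, 5, 6 and 8, against 6256, 2202, 649 and 5816 in WT 3, 4, 5 and 7. TG 6 was 31.3-fold above WT 5 on the value + 1 scale, while the other 3 TG libraries lay inside the WT range. The mean was 6108 ± 9470 in TG and 3731 ± 2742 in WT (SD, n = 4 each), but on the log2 scale the estimate was 0.0017 ± 0.84 (SE; interval -1.81 to 1.81; adjusted p = 0.9996, limma). It was -0.97 without TG 6. edgeR and DESeq2, which compare mean reads, gave 0.69 and 0.71 with all libraries and did not call it (adjusted p = 0.97 and 0.99).

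Both transferases had slightly higher TG estimates. Gsta4, on chromosome 9 (78191966 to 78209348), had 2263, 1655, 2033 and 2200 normalized reads in TG and 2143, 1540, 1521 and 2012 in WT, with a log2 fold change of 0.18 ± 0.17 (SE; interval -0.18 to 0.54). Gstm1, on chromosome 3 (108012251 to 108017975), had 1061, 862, 1177 and 890 in TG and 814, 833, 804 and 883 in WT. TG 5 was the 1 TG library inside the WT range, and the log2 fold change was 0.25 ± 0.16 (SE; interval -0.10 to 0.60; unadjusted p = 0.15 and adjusted p = 0.92, limma). The Mu-class genes are close paralogs, so reads that fit several of them may be split by a rule that the sources used here do not give. The Sod1 feature also overlaps Scaf4 on the opposite strand, the Keap1 feature overlaps the antisense gene Gm16754 and the Nfe2l2 feature the small nuclear RNA gene Gm24996 (GENCODE M21), and the strand setting of the counting is not stated.

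**Figure D2:**
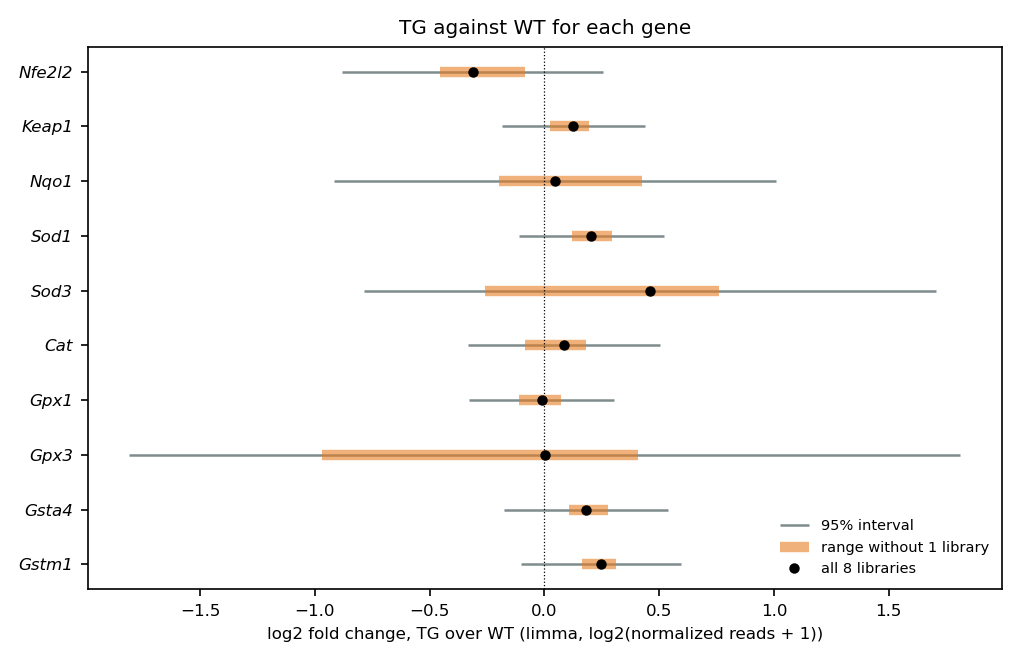
Log2 fold change of TG over WT (horizontal axis) for the 10 genes, with all 8 libraries (black dots), 95% intervals (grey lines) and the range when 1 library is left out (orange bars). All 10 intervals cross 0, and those of Gpx3 (-1.81 to 1.81) and Sod3 (-0.79 to 1.70) are the widest.

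The genes differed in how much they varied between retinas of one genotype. The pooled within-group SD of log2 values was 1.75 for Gpx3, 1.17 for Sod3 and 0.69 for Nqo1. These SDs were larger than those of 99.5%, 98.7% and 92.3% of the 12989 features whose mean reached 100 reads, whose median SD was 0.30. In contrast, Gstm1 (0.16), Keap1 (0.16), Gpx1 (0.21), Sod1 (0.21) and Gsta4 (0.23) lay below that median. Cat (0.30) and Nfe2l2 (0.36) lay at and above it. TG 6 was the highest library for 4 genes (Sod1, Sod3, Gpx3 and Gstm1) and the lowest for Nqo1, and WT 5 was the lowest for 4 (Cat, Gpx3, Gsta4 and Gstm1).

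Levels were also set side by side per kilobase of the principal GENCODE transcript, over all 8 libraries. Sod1 was highest, at 28230 to 45788 normalized reads per kilobase, and no other gene reached its range. Gpx1 followed at 5996 to 8603, and Gpx3 spanned 407 to 12743, which covers the ranges of both Gpx1 and Gsta4 (1557 to 2316). Gstm1 (624 to 913) lay below Gsta4 without overlap and just above Keap1 (422 to 606). Keap1 and Cat (415 to 742) could not be ordered beyond their spread, and neither could Cat and Sod3 (71.9 to 851), Sod3 and Nfe2l2 (67.0 to 153) or Nfe2l2 and Nqo1 (28.6 to 102).

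For the 3 genes with the widest range, the closest patterns were sought among 11246 named features whose mean reached 100 reads, by Pearson's r of log2 values over the 8 libraries. Since the best of many were kept, r is given as a description. Gpx3 was matched most closely by Fbln1, a matrix protein gene (r = 0.98), Bmp2, a growth factor gene (0.97), and Crhbp, which encodes a binding protein for corticotropin-releasing hormone (0.94). Fbln1 had 132, 175, 3322 and 159 normalized reads in TG, against 794, 141, 31.7 and 802 in WT. Near to Sod3 were Optc, a gene for a proteoglycan of the vitreous (r = 0.96) and Cutal (0.95). Optc stood at 68.3, 83.7, 2120 and 116 in TG and at 213, 49.7, 37.0 and 244 in WT. In both, as in Gpx3 and Sod3, TG 6, WT 3 and WT 7 were the 3 highest libraries. Those nearest to Nqo1 were Dnajb9, an endoplasmic reticulum chaperone gene (0.95), Tor4a (0.95) and Tesk2 (0.95).

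Some markers of tissues beside the neural retina were also highest in these libraries. Dct, a pigment cell enzyme gene, had 1596, 1064, 2517 and 537 normalized reads in TG and 4128, 564, 749 and 3123 in WT, so TG 6, WT 3 and WT 7 were again the 3 highest. Tyrp1 had the same 3 highest libraries, with 872 in TG 6, 624 in WT 3 and 858 in WT 7, and 118 to 271 in the other 5. Of the 12 pigment epithelium markers, 4 (Tyr, Tyrp1, Dct and Mlana) had these 3 highest libraries and 8 did not. Rpe65, the isomerase of the pigment epithelium, did not share that order, with 2697, 486, 1310 and 184 in TG and 7153, 261, 244 and 617 in WT. All 12 were detected, and their summed level was 7428 to 44986 in TG and 4769 to 102477 in WT. The 12 lens markers summed to 251 to 22878 in TG and 148 to 28691 in WT, highest in TG 6 and WT 3, with Mip at 0 in TG 2, TG 8, WT 5 and WT 7. The 7 ciliary body and iris markers summed to 6202 to 9014 in TG and 5787 to 7337 in WT. Of these 7, 4 (Wfdc1, Otx1, Msx1 and Foxc1) also had TG 6, WT 3 and WT 7 as the 3 highest. So did 0 of 12 lens markers and 1 of 10 rod photoreceptor markers. These 3 libraries were taken from the Gpx3 and Sod3 values, and the share of all features with the same order was not counted. Otx1 had 24.8, 19.4, 133 and 17.6 in TG and 139, 16.6, 10.6 and 78.0 in WT. Slc4a2, Car12 and Mab21l2 had another order. Mab21l2 had 5292, 3945, 5545 and 6814 in TG and 3277, 4065, 5030 and 4902 in WT. Among 10 Mueller glia markers the sum was 200887 to 282845 in TG and 161346 to 233572 in WT. Apoe, which macrophages also express, had 134750 to 166956 in TG and 82481 to 115842 in WT. Its groups did not overlap, as in 2.53% of all tested features, and it did not pass the test. Without Apoe the sum was 66137 to 116052 in TG and 75296 to 117730 in WT. Aqp4 was lowest in TG 6 (18.5). The part of these tissues in the Gpx3 and Sod3 values was not tested. With a score of the pigment epithelium list as a term, the log2 fold change was 0.20 for Gpx3 and 0.59 for Sod3. With a score of 6 melanin genes, a choice made after the data were seen, it was 0.35 and 0.68, and neither gene passed in either fit. Red blood cells are rich in catalase, Sod1 and Gpx1, and the 8 red blood cell markers summed to 19132 to 32509 in TG and 7809 to 44469 in WT. WT 4 had the lowest sum and the lowest Sod1. WT 7 had the highest sum, the second-lowest Sod1 and the lowest Gpx1. TG 6 had the lowest TG sum and the highest Sod1. The part of blood in the Cat, Sod1 and Gpx1 values was not tested. Of the rod photoreceptor markers of the retina itself, 10 of 10 were detected.

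**Figure D3:**
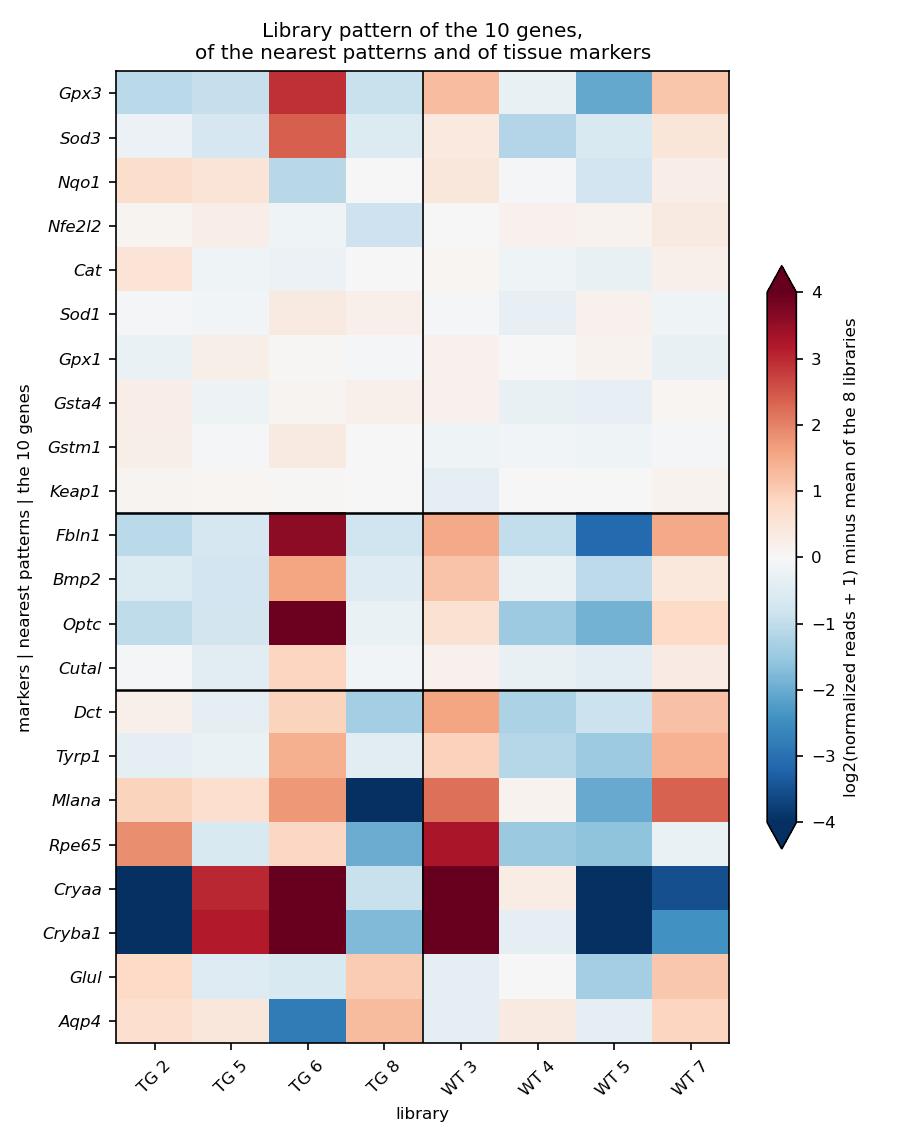
Log2(normalized reads + 1) minus the mean of the 8 libraries (colour) for the 10 genes (top), 2 near patterns each of Gpx3 and Sod3 (middle) and tissue markers (bottom), with TG libraries left of the line and WT libraries right of it. TG 6, WT 3 and WT 7 are high for Gpx3, Sod3, Fbln1, Optc, Dct and Tyrp1, while the lens genes Cryaa and Cryba1 are high in TG 6 and WT 3 but low in WT 7, and Aqp4 is low in TG 6.

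The wider pathway, in 8 lists of genes, gave 0 calls by limma, edgeR or DESeq2. At an unadjusted p under 0.05 with limma there were 4 Nrf2 targets, 2 glutathione transferases, 0 peroxisome genes, 0 producers of superoxide or peroxide, and 1 gene in each of the other 4 lists. Groups did not overlap for 1 gene each of the partner, dismutase, selenoprotein and transferase lists and for 0 in the others. Over all tested features, 4.64% had such a p and 2.53% had groups that did not overlap. Gsta3 and Gstm5 are in both the target and the transferase list. Of 19 partners and regulators of Nrf2, 7 lay higher and 12 lower in TG, 0 passed in either direction and the median log2 fold change was -0.11. Bach1, which represses Nrf2 targets when haem is scarce, had 100.2, 48.4, 66.7 and 61.5 normalized reads in TG and 125, 203, 100.4 and 162 in WT. The groups did not overlap, though TG 2 and WT 5 were nearly equal, and at -1.08 ± 0.37 (log2 fold change, SE) the gene did not pass (unadjusted p = 0.011, adjusted p = 0.92, limma). Mafg, a small Maf partner of Nrf2, stood at -0.45 ± 0.21 (SE) and the acetyltransferase gene Ep300 at -1.29 ± 0.61 (-0.81 without TG 6), and neither passed.

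Of 25 further Nrf2 target genes, 18 lay higher and 7 lower, with a median of 0.14, 0 calls and 4 at an unadjusted p under 0.05. The haem oxygenase gene Hmox1 had the largest estimate, 1.66 ± 0.54 (SE; unadjusted p = 0.0084 and adjusted p = 0.92, limma). With edgeR and DESeq2 the gene stood at 2.11 and 2.10 and was not called (adjusted p = 0.97 and 0.46). Its values were 3984, 4441, 1315 and 495 in TG and 657, 528, 788 and 418 in WT, so TG 2 and TG 5, which were also the 2 highest for Nqo1, were far above the rest while TG 8 lay inside the WT range. TG 6 was above every WT library for Hmox1 but the lowest of all libraries for Nqo1 (44.5). The genes of glutathione synthesis Gclc (-0.06 ± 0.26) and Gclm (-0.16 ± 0.17), the thioredoxin reductase gene Txnrd1 (0.03 ± 0.14) and the sulfiredoxin gene Srxn1 (0.27 ± 0.15) did not pass. Slc7a11, a cystine transporter gene, stood at 1.02 ± 0.39 and had 241, 275, 899 and 324 in TG, against 246, 208, 114 and 195 in WT. TG 6 was far above the rest, and the estimate was 0.59 without it. The pentose phosphate enzyme gene Tkt stood at 0.40 ± 0.18 (SE). Macrophages are known to express Hmox1. Estimates of the microglia and macrophage markers lay higher in TG for 13 of 13, with 0 passing the test, sums of 19754 to 54951 in TG and 21470 to 31246 in WT and the highest sum in TG 5. Other marker lists also lay mostly to 1 side. Lower in TG were 10 of 10 endothelial and pericyte markers and 6 of 6 tested astrocyte and optic nerve markers, and higher were 11 of 12 lens markers. The part of microglia and macrophages in the Hmox1 values was not tested.

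Around the dismutases, 5 of 7 genes lay higher and 2 lower, with a median of 0.09 (-0.0054 to 0.15 without 1 library) and 0 calls. The mitochondrial dismutase gene Sod2 stood at 0.09 ± 0.14 (SE), close to Ccs, which loads copper into Sod1, at 0.08 ± 0.15. The copper pump gene Atp7b had 54.1, 59.9, 9.88 and 75.1 normalized reads in TG, against 117, 186, 102 and 117 in WT. Its groups did not overlap, as in 2.53% of all features. At -1.65 ± 0.57 (log2 fold change, SE) Atp7b did not pass (unadjusted p = 0.012, adjusted p = 0.92, limma), and it was -1.01 without TG 6. Of 6 other glutathione peroxidase genes, 3 had a mean of at least 10 and were tested. Gpx4, which reduces lipid peroxides, stood at -0.35 ± 0.16 (SE), the endoplasmic reticulum enzyme genes Gpx7 at 0.13 ± 0.29 and Gpx8 at 0.08 ± 0.15, and 0 passed. Genes of selenoprotein synthesis and selenium supply, on which Gpx1 and Gpx3 depend, had 4 higher and 7 lower of 11, a median of -0.09 and 0 calls. Eefsec, the elongation factor for selenocysteine, had 590, 533, 548 and 525 in TG, all above the 413, 469, 406 and 431 of WT. At a log2 fold change of 0.35 ± 0.18 (SE) it did not pass (limma, adjusted p = 0.92). Nor was its unadjusted p under 0.05, so Eefsec is not the gene of this list counted above at that threshold.

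Among 18 tested of 21 listed glutathione transferases beside the 2 above, 15 lay higher and 3 lower in TG, with a median of 0.27 and 0 calls. Those at an unadjusted p under 0.05 were Gstm6 and Gstz1. Gstm6, another Mu-class gene, had 433, 330, 346 and 501 normalized reads in TG and 258, 252, 326 and 231 in WT. The groups did not overlap, which held for 1 of the 18 and for 2.53% of all features. The estimate for Gstm6 of 0.58 ± 0.23 (SE) did not pass (limma, adjusted p = 0.92). Gstz1, which isomerises a tyrosine breakdown product, stood at 0.50 ± 0.21, the abundant Gstp1 at 0.23 ± 0.16 and the membrane-bound Mgst1 at -0.28 ± 0.22 (SE), and none of these passed. Without WT 4 the median of the list was 0.13. Peroxisome genes, the neighbours of catalase in the cell, had 10 higher and 12 lower of 22, a median of -0.03 and 0 calls. Of 10 tested genes for producers of superoxide or hydrogen peroxide, 7 lay higher and 3 lower, with a median of 0.24 and 0 calls. That median was 0.022 without TG 5 and 0.57 without TG 8, and the phagocyte oxidase gene Cybb had 152, 447, 230 and 48.8 in TG and 248, 77.3, 57.1 and 68.2 in WT.

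**Figure D4:**
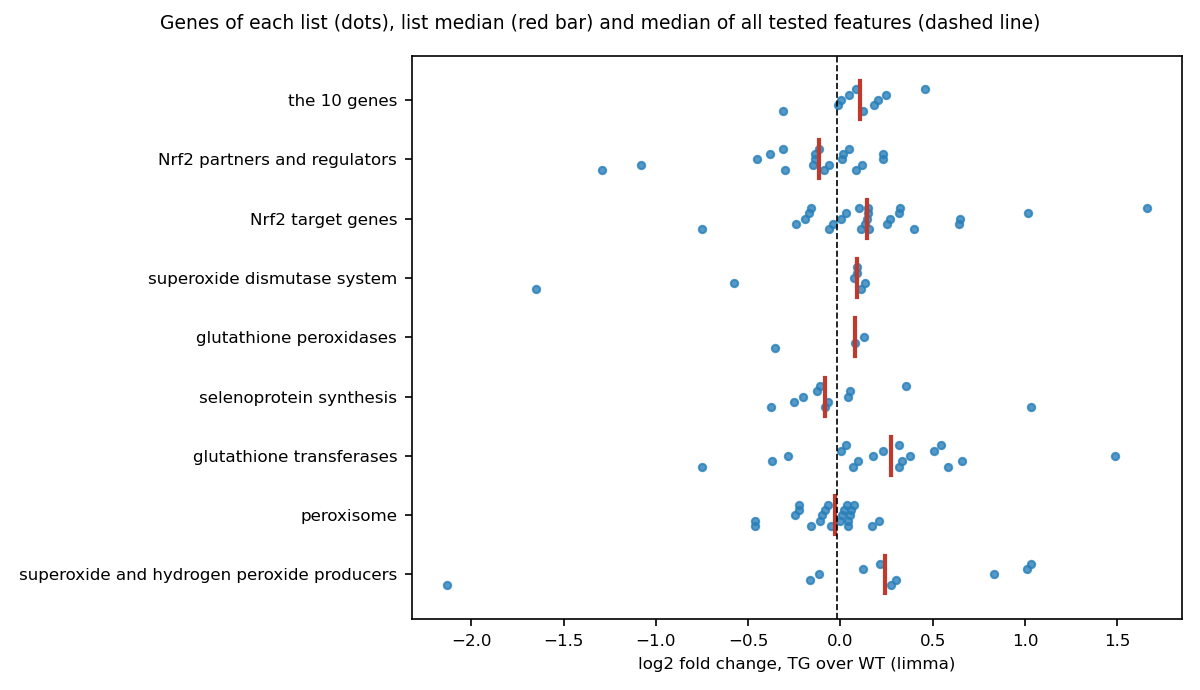
Log2 fold change of TG over WT (horizontal axis) for each tested gene (dots) of the 10 genes and of 8 lists, with list medians (red bars) and the median of all tested features, -0.02 (dashed line). The medians of the glutathione transferases (0.27) and of the producers (0.24) lie farthest right of the dashed line. Those of the Nrf2 targets (0.14), the 10 genes (0.10), the dismutase system (0.09) and the peroxidases (0.08) also lie right of it. Those of the Nrf2 partners (-0.11), selenoprotein synthesis (-0.09) and the peroxisome (-0.03) lie left of it, and no dot passed the test. Hmox1 (1.66) is the dot farthest to the right.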

How the data were processed

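Poly(A)-selected RNA was made into strand-marking libraries, per the labels' protocols. The authors deposited DESeq2-normalized read counts, that is a signal divided in each library by its size factor, per the file headers. The submitters' processing notes name STAR 2.4.0, DESeq2 and mm10, and the sources used here do not name the tool that counted reads. All values proved whole multiples of 1 read (100% within 0.01), giving 61535690 to 70540242 reads per TG library and 68433927 to 75866423 per WT library. Of values from 1 to 12 reads, 81.0% were even, so mates of a pair may be counted apart and counting intervals are then too narrow.

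Values were tested two-sided with limma 3.58.1 under R 4.3.3, after adding 1 and taking log2, with the prior variance following mean level. The 19798 features averaging 10 or more normalized reads entered, with Benjamini-Hochberg adjustment over all of them and a threshold of 0.05. This scale understates changes of low genes. edgeR 4.0.16 (quasi-likelihood) and DESeq2 1.42.0 on the recovered reads were alternatives. In simulated TG against WT data over 19798 features, 39 of 100 true 2-fold and 72 of 100 true 4-fold changes, mixed in 1 data set, were found by limma, with 7 false calls. The changed features all had a mean of at least 50, so recovery below that level was not measured. On data simulated with no change, limma and edgeR each made 1 call and DESeq2 made 26.

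The members and lists were chosen with earlier results of these data known, and lists by role. The named genes were all 10 members, up to 3 genes per list with the smallest p (a part is named) and fixed pathway genes such as Hmox1, Bach1 and Sod2. Dct, Tyrp1, Rpe65, Mip, Aqp4, Cryaa, Cryba1, Mlana, Glul, Tyr, Otx1, Wfdc1, Msx1, Foxc1, Slc4a2, Car12 and Mab21l2 were picked from the marker lists after their values were seen. The sum of the Mueller glia markers without Apoe was not planned. Lists use the feature of highest mean per symbol. Some named genes are not reported here. The labels give no sequencing date or run.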

Additional observations from a re-analysis of the deposited data

Results flagged for a closer look

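Of 20 combinations of gene and group, 2 held a library far from the other 3 of its group by Dixon's test, which chance flags in about 1 of 20 groups. Both were TG 6. Gpx3 had 20313 normalized reads in TG 6, and the nearest TG library had 1446. The gap was 0.99 of the range of the TG group. Sod3 had 3182 in TG 6, against 519 in the nearest TG library, a gap of 0.95 of the range.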

How the results depend on the processing

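None of the 25 alternatives called any of the 10 genes, and the lowest adjusted p of a member in any of them was 0.65. Over all features, 2 were called with limma. The count was 1 with sex as a term, a minimum mean of 50, a pseudocount of 0.5, no variance trend, no filter on low values or the melanin gene score (chosen after seeing the data), 4 with males only and 16 with DESeq2 (26 on simulated data with no change), and 1 to 3 without 1 library. The sign held in all 25 alternatives for Keap1, Sod1, Gsta4 and Gstm1, and turned for the other 6 genes. Log2 fold changes ran from -0.20 to 0.43 for Nqo1, -0.085 to 0.18 for Cat, -0.26 to 0.76 for Sod3, -0.11 to 0.071 for Gpx1 and -0.97 to 0.41 for Gpx3 without 1 library. Nfe2l2 stood at 0.10, Nqo1 at 0.73 and Cat at 0.32 with males only. Gpx1 stood at 0.035 with upper-quartile scaling, 0.028 with sex, 0.060 with eye and 0.019 with array weights. Gpx3 stood at -0.072 with quantile normalization, -0.45 with sex, -0.42 with eye, -0.64 with males only and -0.42 with array weights. Without WT 3 and TG 6 together, chosen after seeing the data, the values were -0.56 for Gpx3, -0.053 for Sod3 and 0.035 for Gpx1. The cause of these turns was not tested. Of 200 list medians under alternatives, 5 moved by more than the spread between libraries. Depth limited Nqo1 most, with 36 reads at its lowest. No paired analysis was possible because TG and WT share only the number 5.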
